A study of Mus musculus with 14 samples.

Results

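Isx-9 Neurog3 cells with low Chgb are cells of Isx-9-treated mouse intestinal organoids that carried at least 5 UMIs of Neurog3 and gave under 1% of their UMIs to Chgb. They were 1141 of the 10016 kept cells of the Isx-9 library, a share of 11.4% (95% exact binomial interval 10.8% to 12.03%), and of 37340 kept cells in 4 single-cell libraries. Kept cells had 500 genes and 1000 UMIs or more, and no more than 20% of UMIs from mitochondrial genes. The cells were chosen by their Neurog3 and Chgb UMIs, so the levels of these genes are given below as a description only. The study grew organoids, cultures of intestinal epithelium that arise from its stem cells, in a medium with EGF, Noggin and R-spondin1, and by its title asked about the effect of the small molecule Isx-9 on enteroendocrine cells. The Isx-9 library came from organoids with a Chgb-mCherry knock-in that received 25 µM Isx-9 for 6 days, beginning on day 2 after passaging. It is set against the library of the same reporter genotype after 6 days of 0.05% DMSO, the untreated reporter library and an untreated wild-type library. Organoids with an Lgr5-EGFP knock-in gave sorted stem cells for bulk RNA-seq, with 2 libraries after 6 hours of 25 µM Isx-9 and 2 after 6 hours of 0.05% DMSO.

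NEUROG3 is the basic helix-loop-helix transcription factor that commits intestinal secretory progenitors to the enteroendocrine lineage, the hormone-secreting cells of the gut. It is made only briefly and is followed by the transcription factors NEUROD1, INSM1, PAX4 and NKX2-2. Chgb encodes chromogranin B, a protein of the dense-core granules in which hormones are stored, so it marks cells that have begun to build granules. Kirrel2, an immunoglobulin-family adhesion protein, is known from the islets of the pancreas.

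The single-cell libraries held 116046871 UMIs (Isx-9), 132150411 (DMSO), 134346948 (untreated reporter) and 139401464 (wild type) in 12201, 11632, 11885 and 10830 deposited barcodes. Each condition had 1 library, so single-cell values carry no test, and treatment and library cannot be told apart. The Isx-9 library stood apart also outside the Neurog3 cells: in its cells without a Neurog3 UMI and with low Chgb, 22.4% of 13681 tested genes were at least 2-fold higher and 3.84% at least 2-fold lower than in the same kind of DMSO cells. Scrublet, a doublet caller, marked 831 Isx-9 cells and 0, 0 and 1 cells of the DMSO, untreated and wild-type libraries, where it cannot be said to have worked. It marked 243 of the 1141 Isx-9 Neurog3 cells with low Chgb (21.3%) and 6.63% of the other Isx-9 cells, and results are given with and without these cells where it matters. Of the 1141 barcodes, 9 occurred in another library as well.

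Cells with at least 5 Neurog3 UMIs were 2005 of 10016 in the Isx-9 library (20.02%), of which 864 gave 1% or more of their UMIs to Chgb. The same threshold held 166 of 8969 cells with DMSO (1.85%, exact interval 1.58% to 2.15%), 189 of 9610 untreated reporter cells (1.97%) and 181 of 8745 wild-type cells (2.07%). The Isx-9 Neurog3 cells with low Chgb had a median of 24 Neurog3 UMIs, with quartiles of 14 and 35 and a maximum of 91. DMSO Neurog3 cells had a median of 14, with quartiles of 9 and 20 and a maximum of 52. Median depth was alike, at 8939 UMIs per Isx-9 Neurog3 cell with low Chgb, against 8919.5 per DMSO Neurog3 cell and 9542 per other Isx-9 cell. Kirrel2, the marker that the rule did not use, had a UMI in 74.0% of the Isx-9 Neurog3 cells with low Chgb, against 6.90% of the other Isx-9 cells. At a common depth of 5000 UMIs per cell, which left out 48 of the 1141 cells, the share was 62.9% (59.9% to 65.7%). The corresponding background, Isx-9 cells without Neurog3 and with low Chgb, was 1.09% of 4041 cells, whose median depth before thinning was 12758 UMIs. Kirrel2, the 1 marker besides Neurog3, was thus present in most of these cells, but no value of the files orders them in time, and they are called here by their Neurog3 and Chgb.

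Levels below are CPM, the UMIs of a gene summed over a group of cells and scaled by all UMIs of the group in the usual way, and a ratio of 2 such levels is given with its exact 95% interval. Intervals, including those of shares, cover counting error only. Against the other 8875 Isx-9 cells, which include the Isx-9 Neurog3 cells with high Chgb, 435 of 14305 tested genes were at least 2-fold higher (3.04%) and 1045 at least 2-fold lower (7.31%). A gene was tested where both groups together held at least 100 UMIs. The median of all tested genes was -0.14 on the log2 scale, and scaling by the median ratio instead gave 574 higher and 714 lower. Without the cells that Scrublet marked, 697 were higher and 2394 lower. Neurog3 and Chgb chose the groups, and genes that move with either differ by construction, so nothing is read from these counts.

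The genes with the highest ratios, by a fixed rule on level and share of cells, were Tgm7, Kirrel2, Cldn11, Nhlh1, Ppp1r14a, Slc39a2, Megf11, Scube1, Btbd17, Rasgrp3, Pthlh and Epb42. Tgm7, a transglutaminase, had 99.4 CPM in the Isx-9 Neurog3 cells with low Chgb, against 2.01 CPM in the other Isx-9 cells, a ratio of 49.5 (42.6 to 57.7). Kirrel2 had 341 against 9.79 CPM, a ratio of 34.8 (32.5 to 37.4). Cldn11, a tight-junction claudin, had 85.4 against 4.13 CPM. The cells without Scrublet calls gave a larger contrast for all 3, with Kirrel2 at 479 against 8.60 CPM, a ratio of 55.7, and Tgm7 at 141 against 1.24 CPM. Nhlh1, another basic helix-loop-helix factor, was scarce, at 9.74 against 0.747 CPM. Ppp1r14a, an inhibitor of myosin phosphatase, had 116 against 8.98 CPM, and Rasgrp3, an exchange factor for small GTPases, 43.2 against 4.09 CPM. Pthlh, which encodes parathyroid hormone-related protein, had 52.1 against 5.15 CPM. Each of the 12 stayed past 2-fold in the same direction under all 11 alternatives tried.

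The promoters of 11 of these 12 genes were matched to RefSeq entries (GRCm38.p6), each 300 bases around the annotated start, and searched for CAGATG or its reverse complement CATCTG, an E-box of the CANNTG kind that basic helix-loop-helix factors bind. It was present in 3 of the 11, or 27.3%, against 17.2% of all 32851 promoters of that length, while CANNTG of any kind was in 72.3%. The 4 shown are those 3 and Kirrel2, the marker, which held no CAGATG or CATCTG in this window. They lie at chr7:30457466-30457765 on the minus strand (Kirrel2), chr2:121036828-121037127 minus (Epb42), chr7:29289070-29289369 plus (Ppp1r14a) and chr1:172057547-172057846 minus (Nhlh1). Capitals mark the motif, whose matches begin 212 and 93 bases before the start in Epb42, 185 in Ppp1r14a and 203 in Nhlh1. A match is a run of letters and does not show that a factor binds.
Kirrel2: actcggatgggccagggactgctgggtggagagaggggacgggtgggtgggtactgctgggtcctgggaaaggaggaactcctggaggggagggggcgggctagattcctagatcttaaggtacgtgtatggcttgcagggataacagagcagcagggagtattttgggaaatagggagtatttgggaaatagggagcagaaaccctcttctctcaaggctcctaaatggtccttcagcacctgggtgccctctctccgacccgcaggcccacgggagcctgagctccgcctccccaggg
Epb42: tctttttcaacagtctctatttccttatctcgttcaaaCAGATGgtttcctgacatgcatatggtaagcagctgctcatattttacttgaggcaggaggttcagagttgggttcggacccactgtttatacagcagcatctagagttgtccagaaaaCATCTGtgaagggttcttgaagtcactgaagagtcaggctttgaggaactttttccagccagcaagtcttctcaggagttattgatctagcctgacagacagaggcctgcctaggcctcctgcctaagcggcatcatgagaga
Ppp1r14a: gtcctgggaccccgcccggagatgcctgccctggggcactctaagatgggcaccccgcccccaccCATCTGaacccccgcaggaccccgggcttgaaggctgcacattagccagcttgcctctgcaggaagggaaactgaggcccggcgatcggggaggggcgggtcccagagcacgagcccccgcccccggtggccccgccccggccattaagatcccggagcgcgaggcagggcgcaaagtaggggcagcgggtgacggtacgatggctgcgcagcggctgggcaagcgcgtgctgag
Nhlh1: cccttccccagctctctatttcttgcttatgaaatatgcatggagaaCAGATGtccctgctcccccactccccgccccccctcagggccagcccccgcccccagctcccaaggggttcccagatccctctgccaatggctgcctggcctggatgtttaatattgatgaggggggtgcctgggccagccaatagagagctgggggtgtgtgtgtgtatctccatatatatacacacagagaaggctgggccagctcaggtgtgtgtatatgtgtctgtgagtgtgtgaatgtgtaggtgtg

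Epb42 and Tgm7 belong to the transglutaminase family and stand close together on chromosome 2, with Tgm5 between them. On GRCm38.p6, Epb42 spans 121017891 to 121036877, Tgm5 121046111 to 121085841 and Tgm7 121093498 to 121116396, so the gaps are 9234 and 7657 bases. Tgm5, looked up as a neighbour after the values of the others were seen, had 31.1 CPM in the Isx-9 Neurog3 cells with low Chgb, against 5.37 CPM in the other Isx-9 cells and 5.50 CPM in DMSO Neurog3 cells. All 3 genes of the cluster were therefore higher than in the other Isx-9 cells. Beyond Tgm7, Lcmt2 had 13.1 against 10.3 CPM in the other Isx-9 cells. On the side of Epb42, Ccndbp1, 979 bases away, had 56.8 against 30.7 CPM and Tmem62 10.9 against 4.30 CPM, so higher levels were not limited to the 3 genes.

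**Figure D1:**
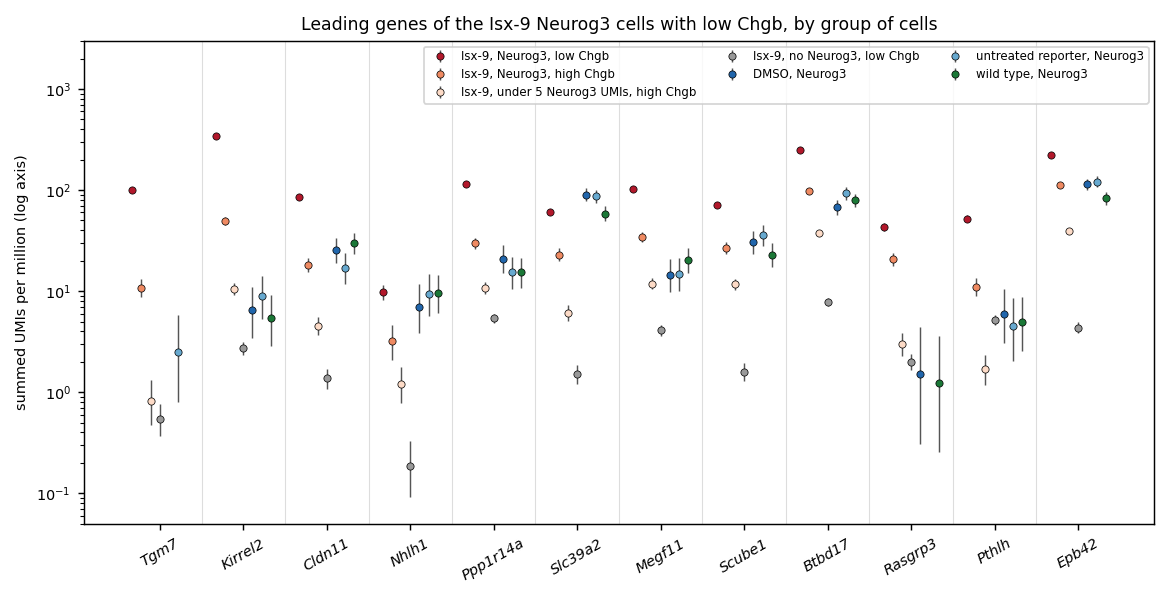
CPM on a log axis of the 12 genes with the highest ratio over the other Isx-9 cells, in 7 groups of cells: the Isx-9 Neurog3 cells with low Chgb first, then 3 kinds of further Isx-9 cells, then the Neurog3 cells of the 3 libraries without Isx-9. Points are summed levels and bars exact 95% Poisson intervals for counting error. Kirrel2 stood at 341 CPM in the first group and at 6.5, 8.95 and 5.38 CPM in the DMSO, untreated and wild-type Neurog3 cells, whereas Slc39a2 had 60.5 CPM in the first group and 90.0 CPM in DMSO Neurog3 cells. Groups at 0 UMIs or without a value have no point.

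Genes known from Neurog3 progenitors were mostly higher. Of a list of 19 such genes, with Neurog3 itself left out, 14 were at least 2-fold higher and 0 at least 2-fold lower than in the other Isx-9 cells, with a median log2 ratio of 1.89. Over all genes 3.04% were higher and 7.31% lower, with a median of -0.14, and since Neurog3 chose the cells nothing further is read from the count. The list includes Amotl2 (85.4 against 16.1 CPM), an angiomotin family protein, and Gadd45a (979 against 190 CPM), a stress-inducible growth arrest gene. Transcription factors of the endocrine lineage, 28 tested, were higher in 15 and lower in 3, with the same shares over all genes. Insm1 had 509 against 162 CPM, Neurod1 264 against 126 CPM, Pax4 79.8 against 31.2 CPM and the SRY-box factor Sox4 1818 against 542 CPM. Neurod2 (134 against 32.3 CPM) and Myt1 (56.1 against 13.7 CPM), both neural and endocrine transcription factors, were also higher. Lmx1a, a factor of enterochromaffin cells, was lower, at 2.49 against 10.9 CPM.

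Notch signalling holds neighbours of a committed cell back from the same fate, and its ligands and targets went different ways. Dll1 had 20.7 CPM in the Isx-9 Neurog3 cells with low Chgb, against 4.56 CPM in the other Isx-9 cells, a ratio of 4.54 (3.90 to 5.28). Dll4, a second ligand, had 18.7 against 9.97 CPM. Mfng, a glycosyltransferase that modifies Notch receptors, had 87.4 against 23.3 CPM. The Notch target Hes1, a repressor of secretory fate, was lower at 33.1 against 72.4 CPM, and at 10.6 against 73.5 CPM without the cells that Scrublet marked. Hes6, a relative that opposes Hes1, was higher at 347 against 131 CPM. In all, 5 of 25 Notch pathway genes were higher and 3 lower, with a median log2 ratio of -0.05, against 3.04% higher, 7.31% lower and a median of -0.14 over all genes. Atoh1, the factor of secretory commitment, was at 0.659 against 0.838 CPM, too few UMIs for a direction.

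Hormone genes were lower more often than not, and granule genes went both ways. None of 14 tested hormone genes was at least 2-fold higher and 9 were lower, where 7.31% of all genes were lower. Sst (somatostatin) had 1.54 against 78.4 CPM and Gip 5.20 against 132 CPM, although a similar share of cells had a UMI, 1.84% against 1.77% for Sst and 5.87% against 6.68% for Gip. The Sst and Gip levels of the other Isx-9 cells therefore rest on few cells with many UMIs. Of 23 granule and exocytosis genes, 4 were higher and 4 lower, with a median log2 ratio of -0.11, close to that of all genes. Of the enterochromaffin genes, Tph1, the enzyme that begins serotonin synthesis, had 17.1 against 81.3 CPM, and Tac1, the precursor of substance P, 325 against 1432 CPM. Among the 4 lower granule genes, Scg2, a secretogranin, had 22.9 against 92.2 CPM and Chga, chromogranin A, 327 against 1102 CPM. These genes are high in cells with much Chgb, which the rule left out. Against Isx-9 cells without Neurog3 and with low Chgb, the direction of several turned: Tac1 had 325 against 121 CPM, Tph1 17.1 against 6.72 CPM and Chga 327 against 146 CPM. Cck, the precursor of cholecystokinin, did not differ by 2-fold (1694 against 1661 CPM), although 86.3% of the Isx-9 Neurog3 cells with low Chgb had a Cck UMI at 5000 UMIs per cell, against 24.8% of Isx-9 cells without Neurog3.

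Along Chgb, the Isx-9 Neurog3 cells changed gene by gene. They were divided into 6 ranges, under 0.03%, 0.03 to 0.1%, 0.1 to 0.3%, 0.3 to 1%, 1 to 3% and 3% or more of UMIs from Chgb, with 614, 184, 91, 252, 618 and 246 cells. The first 4 ranges make up the cells described here. Kirrel2 declined early in this order, with 479, 403, 134, 107, 55.7 and 31.1 CPM, and Tgm7 likewise with 149, 92.8, 41.1, 24.3, 13.9 and 1.89 CPM. Sox4 went down less, with 2285, 1919, 1154, 1069, 1034 and 944 CPM. Insm1 stayed between 427 and 709 CPM. Neurod1 had 215, 319, 427, 279, 445 and 457 CPM, and Fev, a transcription factor of serotonin-making cells, 55.2, 125, 205, 154, 261 and 303 CPM. Tac1 was highest at the other end, with 44.9, 116, 363, 974, 3605 and 6268 CPM. Neurog3 itself, used by the rule, lay between 1537 and 2447 CPM.

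Scrublet marked 13.2%, 12.5%, 29.7%, 44.4%, 15.9% and 2.44% of the cells of these ranges, so the calls were most frequent in the cells just under the Chgb threshold. Without them, 533, 161, 64, 140, 520 and 240 cells remained. Kirrel2 then had 565, 531, 202, 144, 45.1 and 30.6 CPM, and Neurod1 240, 379, 633, 572, 512 and 462 CPM, so the dip of Neurod1 in the fourth range was not seen. Pax4 also had its highest levels in the middle ranges, with 73.1, 119, 177, 175, 147 and 119 CPM. Fev had 61.4, 149, 281, 286, 293 and 305 CPM. The part of doublets in the levels with all cells was not tested further.

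**Figure D2:**
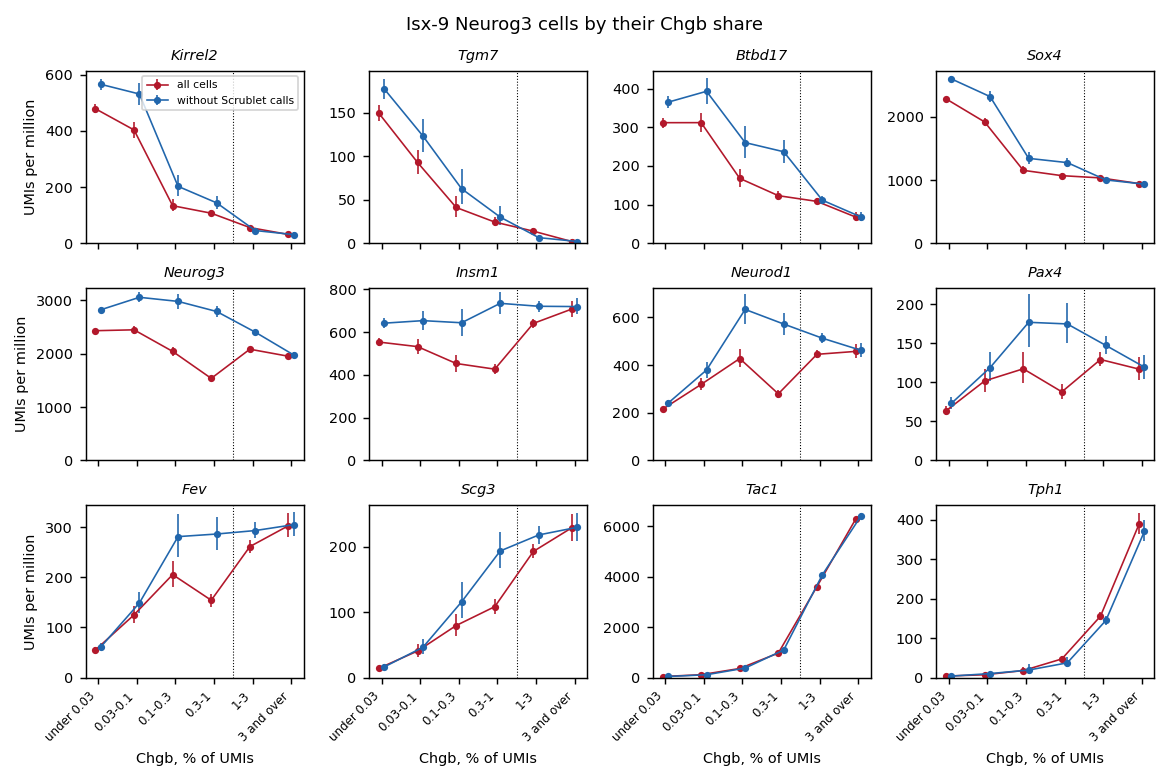
CPM (linear axes from 0) of 12 genes in Isx-9 Neurog3 cells, over 6 ranges of the share of a cell's UMIs from Chgb, with all cells and without those marked by Scrublet; bars are exact 95% Poisson intervals and the dotted line stands at the 1% threshold. Kirrel2 and Tgm7 decline from the first range on, Tac1 climbs to 6268 CPM, and without the marked cells Neurod1 is highest in the third range, at 633 CPM.

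Cells just inside and just outside the thresholds of the rule had similar levels of some genes, but not of all. The 37 cells at exactly 5 Neurog3 UMIs and low Chgb had 128 CPM of Kirrel2, and the 38 cells at 4 UMIs, just outside, 94.0 CPM. Insm1 had 349 and 348 CPM in these cells, whereas Cck had 880 and 3514 CPM. The 56 cells with Chgb at 0.8 to 1% had 72.9 CPM of Kirrel2 and 2010 CPM of Tac1, and the 69 cells at 1 to 1.2%, just outside, 73.2 and 2274 CPM. Within the 1141 cells, levels also differed with the number of Neurog3 UMIs (from 5, from 10, from 20 and from 40, in 168, 290, 470 and 213 cells). Kirrel2 had 204, 309, 371 and 412 CPM in that order, Sox4 1242, 1609, 1914 and 2268 CPM, Dll1 9.75, 12.8, 24.5 and 30.1 CPM and Insm1 381, 444, 532 and 629 CPM. Each of the 4 genes was thus highest in the cells with most Neurog3, whose median depth was 10048 UMIs, against 7862 UMIs in the cells with fewest. Other endocrine genes were highest in the cells with fewest. Neurod1 had 285, 260, 269 and 247 CPM, Fev 126, 106, 102 and 89.9 CPM and Chga 486, 358, 296 and 244 CPM. Scrublet marked 32.1%, 21.7%, 18.9% and 17.4% of the cells of these ranges. Without them Kirrel2 had 335, 447, 501 and 537 CPM, Sox4 1736, 2034, 2384 and 2651 CPM, Dll1 13.1, 15.02, 27.3 and 33.3 CPM and Insm1 571, 585, 669 and 748 CPM, in the same order. Neurod1 then had 432, 341, 332 and 286 CPM and Fev 185, 124, 118 and 93.5 CPM.

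Set directly against the 864 Isx-9 Neurog3 cells with high Chgb, 293 of 11326 tested genes were at least 2-fold higher (2.59%) and 953 at least 2-fold lower (8.41%), in a contrast that the rule made by Chgb. Cell cycle genes were higher: all 19 tested G2/M genes were at least 2-fold higher, with a median log2 ratio of 2.32, while the median over all genes was -0.29. Top2a, the topoisomerase of dividing cells, had 61.3 CPM in the cells with low Chgb, against 9.56 CPM in those with high Chgb, and Mki67 44.4 against 10.2 CPM. Of 18 S phase genes, 10 were higher, among them Mcm3 (17.9 against 3.54 CPM), a part of the replicative helicase. Stem cell genes were higher in 6 of 18, with Lgr5 at 198 against 82.3 CPM. Cdkn1b, an inhibitor of cyclin-dependent kinases, was lower, at 99.6 against 303 CPM. Cdkn1a, which encodes another such inhibitor, went the other way, at 220 against 117 CPM. Of 22 tested genes of cell cycle exit, 0 were at least 2-fold higher and 2 lower, with a median log2 ratio of -0.01. Granule genes were lower in 13 of 22. Hes1 had 33.1 against 11.7 CPM and Dll1 20.7 against 9.44 CPM. Without the cells that Scrublet marked, Hes1 had 10.6 CPM in the cells with low Chgb. It then had 3.54 CPM at 1 to 3% Chgb and 5.42 CPM at 3% or more. Dll1 had 24.1 CPM in the cells with low Chgb, against 6.64 and 11.8 CPM in these ranges, and Mki67 23.9 against 1.99 and 3.94 CPM.

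Counted per cell at 5000 UMIs, 9.88% of the Isx-9 Neurog3 cells with low Chgb (108 of 1093, interval 8.18% to 11.8%) had at least 3 UMIs from 20 G2/M genes. That compares with 1.79% of the Isx-9 Neurog3 cells with high Chgb and 28.5% of Isx-9 cells without Neurog3. In the Neurog3 cells of the other libraries the share was 16.0% with DMSO (26 of 163, interval 10.7% to 22.5%), 17.1% untreated and 14.2% in wild type. Among Neurog3 cells with low Chgb in those libraries it was 17.4% (11.4% to 25.0%) with DMSO, 19.7% (13.7% to 27.0%) untreated and 15.3% (9.98% to 22.1%) in wild type. With all cells, the interval of the Isx-9 Neurog3 cells with low Chgb overlaps those of the DMSO and wild-type cells. It lies below those of the untreated cells, both with low Chgb and at any Chgb (11.9% to 23.4%). Each interval covers counting error in 1 library, so overlap or its lack does not compare the treatments. Of the 108 cells past this limit, 67 were marked by Scrublet. Without marked cells the share was 4.81% (41 of 853, interval 3.47% to 6.46%) in the Isx-9 Neurog3 cells with low Chgb, against 0.136% (1 of 733) in those with high Chgb and 27.7% in Isx-9 cells without Neurog3. Mki67 then had 23.9 CPM in the Isx-9 Neurog3 cells with low Chgb, against 44.4 CPM with all cells. The interval of 3.47% to 6.46% lies below those of the Neurog3 cells of all other libraries, where Scrublet cannot be said to have worked. In either count the Isx-9 Neurog3 cells with low Chgb lay between the cells with high Chgb and those without Neurog3. UMIs of these genes can also come from free RNA, whose part was not tested.

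**Figure D3:**
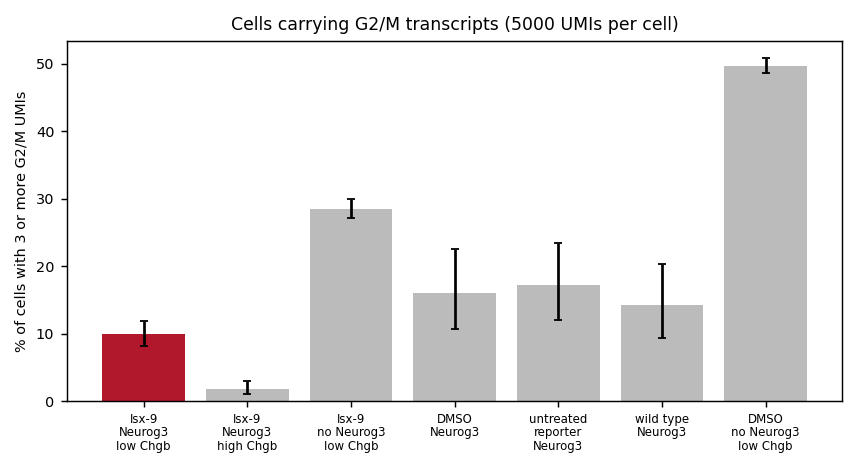
Percentage of cells with at least 3 UMIs from 20 G2/M genes after thinning each cell to 5000 UMIs, by library and kind of cell; bars are exact 95% binomial intervals. All cells are included, with those marked by Scrublet. Isx-9 Neurog3 cells with low Chgb stand at 9.88%, above the 1.79% of those with high Chgb and below the 28.5% of Isx-9 cells without Neurog3.

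The comparison with DMSO asks how Neurog3 cells made with Isx-9 differ from those of organoids without it. Against the 166 DMSO Neurog3 cells, with 2000110 UMIs in all, 1255 of 9964 tested genes were at least 2-fold higher (12.6%) and 201 at least 2-fold lower (2.02%). Between libraries without Isx-9 far fewer genes passed: untreated reporter Neurog3 cells had 7 genes higher (0.142%) and 8 lower (0.162%) than DMSO Neurog3 cells among 4933 tested, and wild-type Neurog3 cells 46 (0.869%) and 20 (0.378%) among 5293. These shares are not strictly alike. The Isx-9 Neurog3 cells with low Chgb held 13658037 UMIs, against 2010416 (untreated) and 2416516 (wild type), so more scarce genes were tested for them. The groups without Isx-9 were taken at any Chgb. Of the 1255 higher genes, 1220 were tested in cells without Neurog3, and 1032 (84.6% of those tested) were at least 2-fold higher there too. Of the 201 lower genes, all tested there, 95 (47.3%) were at least 2-fold lower there too. Over all 13681 genes tested in those cells, 22.4% were higher and 3.84% lower. Both the higher and the lower genes were thus called the same way there more often than all genes. A gene was at least 2-fold higher than in each of the 3 other libraries' Neurog3 cells in 847 of 9851 cases (8.60%), and lower in 93 (0.944%).

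Kirrel2 was the gene with the highest ratio by the fixed rule, which leaves out genes with under 10 UMIs in the lower group. Some of the genes left out had higher ratios, such as Uchl1 at 219 on 1 DMSO UMI and Wfdc2 at 205 on 2. Basp1 had 261 CPM and 0 DMSO UMIs. Kirrel2 had 341 CPM in the Isx-9 Neurog3 cells with low Chgb, against 6.5 CPM (13 UMIs) in DMSO Neurog3 cells, a ratio of 52.5 (30.7 to 98.6). Untreated reporter and wild-type Neurog3 cells had 8.95 and 5.38 CPM, so the 3 libraries without Isx-9 lay close together and well below. At 5000 UMIs per cell, 62.9% of the Isx-9 Neurog3 cells with low Chgb had a Kirrel2 UMI, against 3.07% of 163 DMSO Neurog3 cells. Kirrel2 was also higher elsewhere in the Isx-9 library. At that depth 1.09% of Isx-9 cells without Neurog3 had a UMI, against 0.0938% of DMSO cells without Neurog3. Isx-9 Neurog3 cells with high Chgb had 49.6 CPM of it. Rasgrp3 had 43.2 against 1.5 CPM, and Megf11 102 against 14.5 CPM. The genes listed for the DMSO library do not include Tgm7, so it has no value there. In untreated reporter Neurog3 cells Tgm7 had 2.49 CPM.

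The core factors of the lineage, in contrast, differed by under 2-fold with and without Isx-9. Insm1 had 509 CPM in the Isx-9 Neurog3 cells with low Chgb, against 516 CPM in DMSO Neurog3 cells, a ratio of 0.987. Neurod1 had 264 against 267 CPM, Nkx2-2 222 against 238 CPM, Sox4 1818 against 1634 CPM and Hes6 347 against 279 CPM. Pax4 had 79.8 against 56.0 CPM. Without the cells that Scrublet marked, the ratios were larger: 1.27 for Insm1, 1.25 for Neurod1, 1.40 for Sox4, 1.54 for Hes6 and 1.81 for Pax4. With all cells, 4 of 18 tested progenitor genes were higher and 2 lower, or 22.2% and 11.1%, against 12.6% and 2.02% of all genes. Their median log2 ratio was 0.24, where that of all genes was 0.05. The 4 higher genes included Kirrel2, Rasgrp3 and Btbd17 (250 against 68.0 CPM). Dll1 was lower, at 20.7 against 62.5 CPM, a ratio of 0.332 (0.268 to 0.413), with 45.8 and 50.9 CPM in untreated and wild-type Neurog3 cells. Cdkn1a, which encodes the cell cycle inhibitor p21, was lower too, at 220 against 529 CPM, with 555 and 540 CPM in the other 2 libraries. Dll4 did not share this (18.7 against 19.5 CPM).

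Of 19 tested neuronal genes, 14 were at least 2-fold higher and 0 lower, with a median log2 ratio of 3.04, where 12.6% of all genes were higher and their median was 0.05. Elavl3, a neuronal RNA-binding protein, had 78.4 CPM in the Isx-9 Neurog3 cells with low Chgb, against 5 CPM in DMSO Neurog3 cells. Tubb3, a neuronal tubulin, had 243 against 112 CPM, and Celf4, a splicing regulator, 60.5 against 0.5 CPM. These were raised in Isx-9 cells without Neurog3 as well: at 5000 UMIs per cell 7.57% of them had an Elavl3 UMI, against 0.107% of DMSO cells without Neurog3, and Celf4 stood at 30.1 CPM in them. Igfbp2, an insulin-like growth factor binding protein, had 2056 against 120.0 CPM. It was also high in Isx-9 cells without Neurog3, at 898 CPM against 2.10 CPM in DMSO cells without Neurog3. Wnt pathway genes were higher in 7 of 14 and lower in 0, against 12.6% and 2.02% of all genes, with Lef1 at 21.1 against 1 CPM and Nkd1, an inhibitor of the pathway, at 66.9 against 10.0 CPM. The stem cell marker Lgr5 had 198 against 73.5 CPM, while the stem cell gene Olfm4 was lower, at 98.0 against 879 CPM.

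Genes of the regenerating or fetal-like epithelium were also higher, in 5 of 7 tested, against 12.6% of all genes. Clu, a marker of revival stem cells, had 234 CPM in the Isx-9 Neurog3 cells with low Chgb, against 3 CPM in DMSO Neurog3 cells. Without the cells that Scrublet marked, Clu had 140 CPM. Isx-9 cells without Neurog3 had more, 588 CPM, and the part of free RNA in the lower level was not tested. Against the other Isx-9 cells the same list went the other way, with 1 higher and 9 lower of 14 tested. Cym, a digestive protease, had 324 CPM, or 196 CPM without the cells that Scrublet marked, and 0 UMIs in DMSO Neurog3 cells. Isx-9 cells without Neurog3 had 751 CPM of it.

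Among hormones, Cck was higher and Ghrl lower. Cck had 1694 CPM in the Isx-9 Neurog3 cells with low Chgb, against 110 CPM in DMSO Neurog3 cells, 193 CPM in untreated and 72.4 CPM in wild-type Neurog3 cells. At 5000 UMIs per cell, 24.8% of Isx-9 cells without Neurog3 had a Cck UMI too, against 6.55% of DMSO cells without Neurog3. Ghrl, the precursor of ghrelin, had 1.61 against 1360 CPM with DMSO, and untreated and wild-type Neurog3 cells had 457 and 91.5 CPM. The 3 libraries without Isx-9 differed widely in Ghrl, yet each was far above the Isx-9 Neurog3 cells with low Chgb. A Ghrl UMI was seen in 15.1% of DMSO Neurog3 cells and in 11.95% of DMSO cells without Neurog3 (11.7% and 5.45% at 5000 UMIs per cell). Tph1 had 17.1 against 256 CPM and Tac1 325 against 1198 CPM, but DMSO Neurog3 cells were taken at any Chgb. The 135 DMSO Neurog3 cells with low Chgb had 21.3 CPM of Tph1 and 103 CPM of Tac1, so against these Tph1 was close and Tac1 higher with Isx-9. Kirrel2 had 7.10 CPM in them.

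Markers of other epithelial types differed in this comparison as well. The 15 goblet cell markers summed to 1890 CPM in the Isx-9 Neurog3 cells with low Chgb, against 6428 CPM in DMSO Neurog3 cells. Enterocyte markers summed to 501 against 1791 CPM, Paneth cell markers to 644 against 2540 CPM. Fcgbp, a goblet cell mucus protein, had 23.6 against 432 CPM, with 211 CPM in DMSO cells without Neurog3. Defa24, a Paneth cell defensin, had 99.7 against 1539 CPM and a UMI in 89.2% of DMSO Neurog3 cells, with 3981 CPM in DMSO cells without Neurog3. Other Paneth cell genes went the other way, and of 10 tested 4 were at least 2-fold higher and 3 lower. Defa21 had 47.9 against 1.5 CPM and Defa22 41.1 against 3.5 CPM, with a UMI in 1.32% and 0.964% of the Isx-9 Neurog3 cells with low Chgb. Reads of the near-identical defensin genes may be split among copies, so single defensins are uncertain. The part of free RNA in these differences was not tested. The immune marker Ptprc had 0 UMIs in both groups, and the 14 immune markers summed to 13.3 against 4.00 CPM over the 8 listed in both.

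Some genes were higher in both comparisons. Of the 435 genes higher than in the other Isx-9 cells, 322 were tested against DMSO Neurog3 cells, and 129 were higher there as well, 10 lower and 183 within 2-fold. Over all 9964 genes tested there, 1255 were higher and 201 lower. The median log2 ratio of the 322 was 0.70 and that of all genes 0.05. Both comparisons share the Isx-9 Neurog3 cells with low Chgb, so this count is a description. Of the 129, 47 were not called higher in cells without Neurog3, although only 15 of these could be tested there. The rest of the 47 had under 100 UMIs there, so they cannot be said to be unchanged. Mmd2, for example, had 1.22 CPM in Isx-9 cells without Neurog3, against 0.00821 CPM in DMSO cells without Neurog3. Col13a1 had 0.489 against 0.00821 CPM. Pthlh was among the 15, with 52.1 CPM in the Isx-9 Neurog3 cells with low Chgb, against 5.15 CPM in the other Isx-9 cells, 6.00 CPM in DMSO Neurog3 cells and 5.18 CPM in Isx-9 cells without Neurog3. Steap1, a metalloreductase family protein chosen after its values were seen, had 71.1, 20.6 and 24.0 CPM in the first 3 of these groups. Of 33 genes lower in both comparisons, 16 were not called lower in cells without Neurog3, with Chgb, which the rule used, among them. Another of these 16, Fos, an immediate early gene likewise chosen afterwards, had 61.9 CPM. The other Isx-9 cells had 128 CPM of it and DMSO Neurog3 cells 134 CPM.

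**Figure D4:**
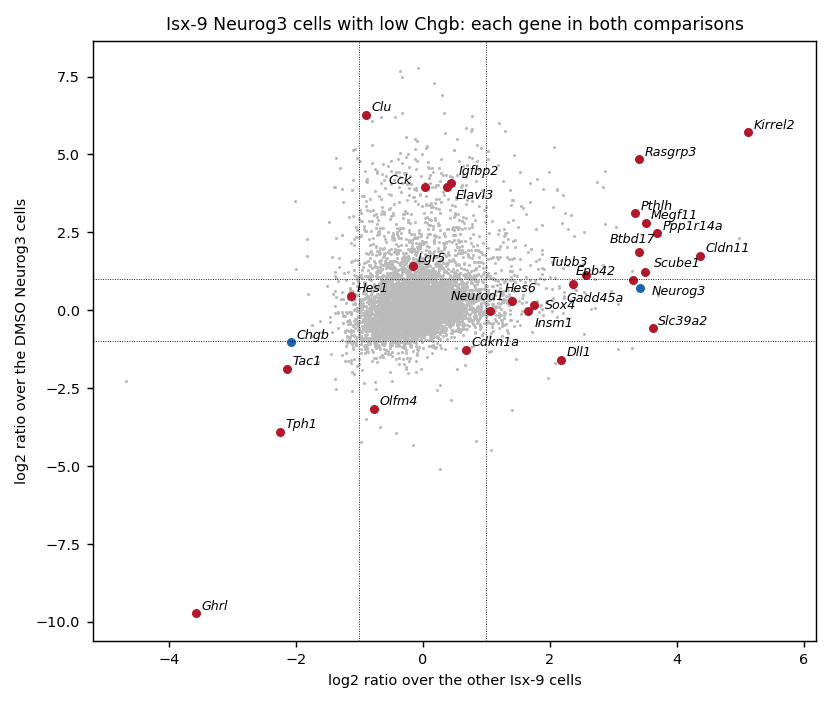
Each tested gene by its log2 ratio of Isx-9 Neurog3 cells with low Chgb over the other Isx-9 cells (horizontal) and over DMSO Neurog3 cells (vertical), with named genes in red, the genes of the rule in blue and dotted lines at 2-fold. Kirrel2 lies far out on both axes. Insm1, Neurod1 and Sox4 are past 2-fold on the horizontal axis and near 0 on the vertical, and Igfbp2, Elavl3 and Cck the reverse. Clu is past 2-fold on the vertical axis at a log2 ratio of -0.90 on the horizontal.

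Across 9032 Isx-9 cells thinned to 5000 UMIs, the gene whose level followed Neurog3 most closely among 11714 genes was Gadd45a, with a Pearson correlation of 0.67. It was followed by Insm1 (0.58), Kirrel2 (0.55), Tubb3 (0.54), Epb42 (0.53), Btbd17 (0.52), Sox4 (0.51), Mtch1 (0.51), Fam241b (0.49) and Olfm1 (0.46). Cells of 1 library share its preparation and depth, and these values are descriptions. Within the 1093 Isx-9 Neurog3 cells with low Chgb that could be thinned, where Neurog3 varies only above the threshold, Gadd45a was again highest, at 0.43. Kirrel2 gave 0.30 there. Olfm1, an extracellular protein of neurons, had 280 CPM in the Isx-9 Neurog3 cells with low Chgb, against 74.8 CPM in the other Isx-9 cells. Fam241b lies 22040 bases from Neurog3 on chromosome 10 and had 218 against 71.6 CPM. At the other end within these 1093 cells were Pdgfa, a growth factor (-0.41), the ion transporter Slc12a2 (-0.41) and the stem cell gene Smoc2 (-0.39). These correlations include the cells that Scrublet marked. With all cells, Smoc2 had 347 CPM in the range with fewest Neurog3 UMIs and 213 CPM in that with most. Without the marked cells it had 145, 177, 127 and 121 CPM from fewest to most, so it was not highest in the lowest range.

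The bulk libraries of sorted stem cells, taken after 6 hours, show which of these genes had changed in separate samples soon after Isx-9 was added. They held 19025875 and 19431905 counts with Isx-9 and 19487264 and 18909542 with DMSO. At an adjusted p under 0.05 in edgeR's quasi-likelihood test, 27.3% of 17418 tested genes rose and 20% fell, so a change alone is common. In bulk, more cells of a type and more RNA per cell cannot be told apart. Of the 12 genes highest over the other Isx-9 cells, 11 were tested, 7 rose and 0 fell. Kirrel2 had 3.64 and 2.35 CPM in the Isx-9 libraries, against 0.162 and 0.110 CPM in the DMSO libraries. It rose by 4.39 on the log2 scale, with a standard error (SE) of 0.65 and an adjusted p of 0.000261 in edgeR's quasi-likelihood test, on 73 and 47 against 3 and 2 counts. Both Isx-9 libraries were above both DMSO libraries for each of the 7 genes.

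Scube1, a secreted EGF-domain protein, had 5.03 and 3.24 CPM with Isx-9, against 0.162 and 0.441 CPM with DMSO, a rise of 3.76 on the log2 scale (SE 0.57; edgeR quasi-likelihood adjusted p 0.000310). Megf11, a surface protein with EGF-like domains, had 5.43 and 5.14 against 1.24 and 1.32 CPM, a rise of 2.04 on that scale (edgeR quasi-likelihood adjusted p 0.000971). Tgm7 had 1.40 and 1.95 against 0.108 and 0.386 CPM and rose by 2.73 on the log2 scale, a call that was lost without Isx-9 replicate 2. Cldn11 had 25 and 18 counts with Isx-9, against 0 and 1 with DMSO, a ratio of 42.9 with an interval of 7.31 to 1735. Ppp1r14a had 16 and 13 counts with Isx-9 and 0 in both DMSO libraries, at least 9.65-fold higher when the DMSO group is set to 3 counts in all. Rasgrp3 rose by 2.95 on the log2 scale but lost its call without DMSO replicate 1, without either Isx-9 replicate and in DESeq2.

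The other tested genes of the 12 did not pass. The log2 fold change of Btbd17 was 1.04 with an SE of 0.70 (edgeR quasi-likelihood adjusted p 0.252), that of Epb42 0.53 (edgeR adjusted p 0.0849), that of Slc39a2 0.14 and that of Pthlh -0.12. Nhlh1 had 7 and 12 counts with Isx-9, against 5 and 3 with DMSO, and was too low to be tested. Epb42 was thus not called at 6 hours where its neighbour Tgm7 was, although this difference between the genes was not tested.

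Of the genes whose level followed Neurog3, Olfm1 rose most among the 10, with 27.2 and 23.7 CPM with Isx-9, against 0.861 and 1.27 CPM with DMSO (4.57 on the log2 scale, SE 0.25; edgeR quasi-likelihood adjusted p 2.21e-07). Tubb3 had 5.93 and 3.39 against 0.592 and 0.771 CPM, a rise of 2.76 on the log2 scale (SE 0.47; edgeR quasi-likelihood adjusted p 0.000676). Gadd45a had 39.5 and 47.6 against 32.3 and 35.9 CPM, a rise of 0.35 (edgeR quasi-likelihood adjusted p 0.0374), a call lost without DMSO replicate 1, without Isx-9 replicate 2, in DESeq2 and with no filter on low counts. Insm1 (0.48, edgeR adjusted p 0.113) and Sox4 (-0.07, edgeR adjusted p 0.430) did not pass. Hes6 fell by 0.62 on the log2 scale, with 54.9 and 59.1 against 87.5 and 87.9 CPM. Dll1 fell by 0.30, with 57.4 and 64.7 against 71.1 and 79.3 CPM, but lost its call without Isx-9 replicate 1, without DMSO replicate 2, in DESeq2 and with no filter on low counts. Cdkn1a rose by 0.53 on the log2 scale, with 66.6 and 76.6 against 50.9 and 48.3 CPM, whereas it was lower in the Isx-9 Neurog3 cells with low Chgb than in DMSO Neurog3 cells.

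Genes higher than in DMSO Neurog3 cells at 6 days were mostly higher in stem cells at 6 hours. Of 1147 such genes that were tested in bulk, 931 rose (81.2%, against 27.3% of all tested genes) and 16 fell (1.40%). Of the 435 genes higher than in the other Isx-9 cells, 337 were tested and 187 rose (55.5%), but so did 408 of 814 of the genes lower than in the other Isx-9 cells (50.1%). These 2 shares were close to each other. Of the 12 genes highest over DMSO Neurog3 cells, 10 rose, among them Igfbp2 (10.0 and 7.68 CPM with Isx-9, against 0.538 and 0.551 CPM with DMSO), Elavl3 and Tesc, a calcium-binding protein (16.3 and 12.02 against 0.592 and 0.220 CPM). Cck had 8.92 and 10.9 against 9.10 and 15.04 CPM and a log2 fold change of -0.28 (edgeR quasi-likelihood adjusted p 0.393), so its groups overlapped. Of the 201 lower genes, 198 were tested, 85 fell (42.9%) and 15 rose. Ghrl, lowest at 6 days, had a log2 fold change of -0.76 at 6 hours (edgeR quasi-likelihood adjusted p 0.213).

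**Figure D5:**
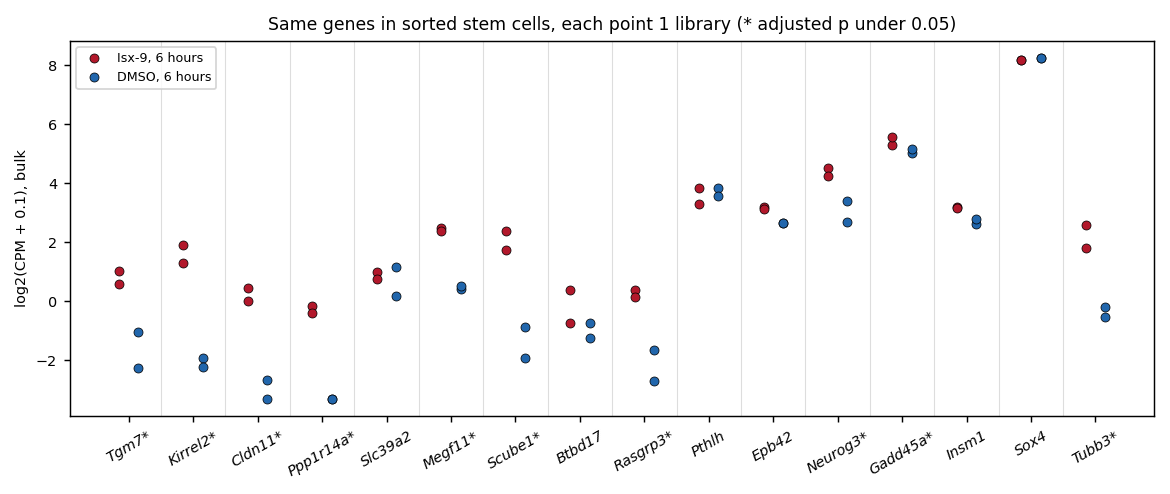
Log2(CPM + 0.1) in each bulk library of sorted stem cells, Isx-9 left of DMSO for each gene, for genes named from the Isx-9 Neurog3 cells with low Chgb; each point is 1 library and a star marks an adjusted p under 0.05 (edgeR). Kirrel2 lay at 3.64 and 2.35 CPM with Isx-9, above 0.162 and 0.110 CPM with DMSO, while Sox4 lay at 285 and 291 CPM with Isx-9, close to the 304 and 302 CPM with DMSO.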

How the data were processed

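The authors deposited raw UMI counts in 4 single-cell matrices. For these the submitters' processing notes name Cell Ranger 3.1.0 and Seurat 3.1.5. They list 20063 genes (Isx-9) and 17527, 17496 and 17610 genes (DMSO, untreated, wild type), and comparisons between libraries used genes listed in both. For bulk the authors deposited raw gene counts. The submitters' processing notes name HTSeq 0.12.4, Trim Galore 0.6.4, HISAT2 and GRCm38. No source used here gives the HISAT2 version or the strand setting. The authors' deposited comparison table and the chromatin accessibility samples were not analysed here.

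UMI counts were summed over the cells of a group in Python 3.11.15 (numpy 2.4.6, scipy 1.17.1, pandas 2.3.3) and divided by the group's total. A ratio of 2 or more, or 0.5 or less, counted as a call among genes with at least 100 UMIs over both groups. Cells were also thinned to 5000 UMIs. Scrublet (scanpy 1.11.5) called doublets in each library. Genes with the 12 highest and 8 lowest ratios were named among those with at least 200 UMIs over both groups, 10 in the lower group and a UMI in 10% of the cells of the higher group, without Gm, Rik, mt- genes, Neurog3 and Chgb. Further genes were named whatever their result or as list members with large ratios. The members, lists and rules were chosen with earlier results of these data known.

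Bulk counts were filtered with filterByExpr, TMM-scaled and tested 2-sided with edgeR 4.0.16 (quasi-likelihood, Benjamini-Hochberg over 17418 genes, R 4.3.3, limma 3.58.1), with DESeq2 1.42.0 as an alternative. A log2 fold change is Isx-9 over DMSO. The labels do not say that replicates came from separate cultures, so p-values measure the spread between these libraries. The scripts were tested on simulated data.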

Additional observations from a re-analysis of the deposited data

How the results depend on the processing

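With Neurog3 set at 3 or at 10 UMIs, the share of Isx-9 cells was 12.3% or 9.71% instead of 11.4%. With Chgb at 0.5% or 2% it was 9.74% or 14.5%, and without the cells Scrublet marked 9.78%. The 435 higher and 1045 lower genes over the other Isx-9 cells became 697 higher and 2394 lower without those cells. Lower genes numbered 2129 with each cell weighed the same, 1612 after thinning and 1834 with a minimum of 20 UMIs. Against Isx-9 cells without Neurog3 and with low Chgb, 1243 genes were higher, and 6 named genes at least 2-fold lower turned positive in log2 ratio: Pappa2 0.10, Tph1 1.34, Tac1 1.43, Prss50 0.57, Chgb 1.53 and Chga 1.16. Over DMSO Neurog3 cells, 1255 higher and 201 lower became 605 and 121 after thinning and 2517 and 440 with a minimum of 20 UMIs, with 319 lower without Scrublet calls. Chgb over DMSO Neurog3 cells turned to 0.22 with its threshold at 2% and to 2.41 against DMSO cells with low Chgb. In bulk, 4755 genes rose and 3488 fell. Leaving out 1 library gave 3599 to 4536 that rose and 2062 to 3090 that fell, the lowest count of fallen genes without Isx-9 replicate 1. DESeq2 gave 4307 and 2744. Uncalled bulk log2 fold changes changed sign, ranging over left-out libraries between -0.31 and 0.76 for Slc39a2, -0.61 and 0.12 for Cck, -0.20 and 0.48 for Ang4, -0.40 and 0.15 for Pthlh and -0.10 and 0.45 for Agr2. The causes of these changes were not tested.

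The replicate numbers are not stated to pair the libraries, and deviations of same-numbered libraries correlated at 0.011. With the replicate number as a block, 4723 genes rose and 3408 fell. The 2000110 UMIs of the DMSO Neurog3 cells limit what could be seen of scarce genes: among genes with at least 200 UMIs in the Isx-9 Neurog3 cells with low Chgb, and without Gm, Rik and mt- genes, 200 had under 10 UMIs in the DMSO Neurog3 cells and 31 of them 0. Leaving out the cells that Scrublet marked from the G2/M shares and from the Neurog3 ranges was chosen after seeing the data.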
